A study of Rattus norvegicus with 32 samples.

Results

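The genes described here handle carotenoids and retinoids, that is, vitamin A and the plant pigments it is made from, in the intestinal mucosa of lean and obese Zucker rats. They are 10 of the 17245 genes that the array reads with a probe set carrying 1 gene symbol, and they were chosen by name, with earlier results of these data known. All 10 were measured, and none was removed by a filter on low values. *Bco2* is also read by 1 further probe set and *Rarb* by 2, and a gene is given here by its probe set with the highest mean. RNA was taken from 32 male rats, with 1 array per rat. The ZO rats are Zucker-Lepr fa/fa animals, in which the leptin receptor is defective in all tissues and which become obese, and the ZL rats are Zucker lean Lepr+/fa animals, which carry 1 copy of the same mutation. The groups were 16 ZO rats after 30 days of an oral probiotic, 4 ZO rats after 30 days of placebo, 4 ZO rats at baseline, 4 ZL rats after 30 days of placebo and 4 ZL rats at baseline. Placebo rats received the carrier of milk powder, sucrose and vitamin C, and baseline rats were killed after adaptation to the housing. The probiotic rats received single strains or a mixture, but their labels name no strain, so they form 1 group. Age was not used, because baseline and treated rats carry the same entry for it. The treated rats were nevertheless killed after 30 further days, so ageing and the placebo carrier cannot be told apart in comparisons with baseline.

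Dietary beta-carotene enters the enterocyte through SCARB1, a scavenger receptor of the brush border. BCO1 cleaves it at the centre into retinal, whereas BCO2 of the mitochondria cleaves carotenoids off centre and also takes xanthophylls. Retinal and retinol are bound by RBP2, retinol is esterified by LRAT for export in chylomicrons, and a small part is oxidised to retinoic acid. In mice, retinoic acid induces the homeobox repressor ISX, which lowers *Bco1* and *Scarb1* and so limits vitamin A production.

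Values are log2 signals, on which a difference of 1 is a 2-fold change, and a gene is said to rise or fall where limma's p, adjusted by Benjamini-Hochberg across the whole table of 29214 probe sets, was under 0.05. Probes differ in brightness, so levels are not compared between genes. The arrays had medians of 4.79 to 4.97 and a lowest Pearson correlation of 0.979 between any pair, taken across probe sets. Enterocyte markers averaged 11.34 to 12.36 in all rats and pancreatic acinar markers 3.18 to 3.47. Bile acid carriers of the distal small intestine were bright, with *Fabp6* between 12.99 and 13.41 in 31 of 32 rats. The exception was the ZL placebo rat C13, at 8.71 for *Fabp6* and 7.01 for *Slc10a2*, against 9.11 to 11.94 for *Slc10a2* in the other rats. Its mean over 6 distal markers was the lowest of the 32 rats, 9.88 against 11.15 to 11.77, and its mean over 4 proximal markers the highest, 10.10 against 7.28 to 9.32. The labels do not name the segment of intestine sampled. The ZL baseline rat C4 was second lowest in the distal mean, at 11.15, and second highest in the proximal marker *Gata4*, at 9.75. Its proximal mean of 8.95 ranked only 13 of the 32 rats from the highest, and its *Fabp6* of 13.21 ranked 12. For the members and the other retinoid genes, a value without C13 or without C4 is given wherever leaving out that rat changes a call or moves a described value by over 1.5 times, an alternative chosen after seeing the data. In tissue RNA, fewer cells of a type and less RNA per cell cannot be told apart.

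**Figure D1:**
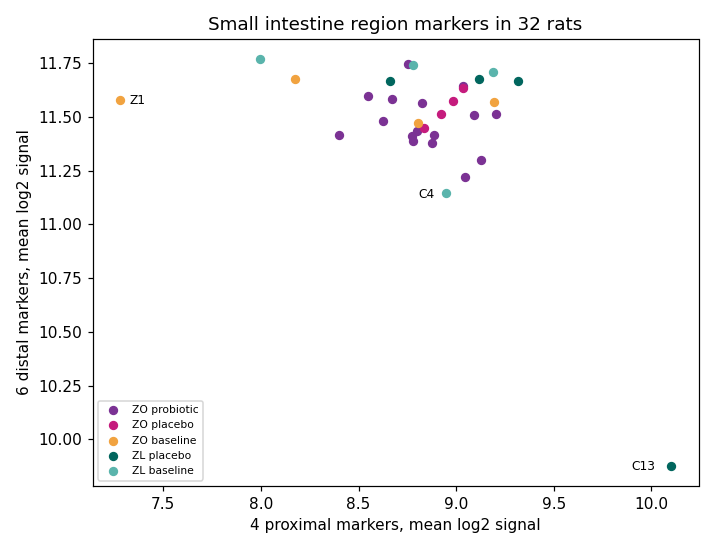
Mean log2 signal of 6 distal small intestine markers (vertical axis) against that of 4 proximal markers (horizontal axis), 1 point per rat, coloured by group. Rat C13 lies apart at 10.10 (proximal) and 9.88 (distal), C4 has the lowest distal mean of the other rats, and the ZO baseline rat Z1 the lowest proximal mean, 7.28.

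*Bco2* was the member with the clearest difference between the genotypes. It was lower in ZO than in ZL rats on placebo, fell in ZO rats over the 30 days, and did not pass the test between the genotypes at baseline. On placebo, *Bco2* had log2 signals of 7.99, 7.27, 7.07 and 7.52 in the ZO rats, against 8.64, 9.86, 8.56 and 9.29 in the ZL rats. Each ZO rat was below each ZL rat. The difference was -1.63 (SE 0.23, adjusted p = 0.00022), a level 3.09-fold lower in ZO rats, and -1.37 without C13 (adjusted p = 0.0014), and it passed in each of the 8 runs that left out 1 of these rats. Fitted on these 8 rats alone it did not pass (adjusted p = 0.0681, and 0.14 with the rat number as a block). Marker lists separated the same rats: the cell division genes had means of 7.53 to 7.65 in ZO placebo rats, against 7.72 to 8.21 in ZL placebo rats (0 of 5 passed, median difference -0.41), and the goblet cell markers 11.87 to 12.01, against 11.69 to 11.85 (0 of 5 passed, median difference 0.14). Their part in the difference was not tested. At baseline the ZO rats had 8.26, 9.003, 8.75 and 8.21, against 8.60, 8.40, 8.17 and 8.67 in the ZL rats. These ranges overlap, and the difference was 0.10 (95% interval -0.37 to 0.57, adjusted p = 0.898), and 0.17 without C4 (adjusted p = 0.772). The change in ZO rats on placebo relative to ZO baseline was -1.10 (SE 0.23, adjusted p = 0.0101), again with no overlap, and it did not pass without Z15 (adjusted p = 0.0646) or Z2 (adjusted p = 0.0562). In ZL rats the placebo group stood 0.63 above baseline (adjusted p = 0.164), and 0.37 without C13 (adjusted p = 0.453). The difference between these 30-day changes was -1.73 (SE 0.33), which did not pass (adjusted p = 0.0605), and -1.47 without C13 (adjusted p = 0.202). It passed without C15 (adjusted p = 0.0345) or Z11 (adjusted p = 0.0311).

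The 16 ZO probiotic rats had *Bco2* at 6.76 to 7.73, with a median of 7.39, so that all 16 were below the lowest ZL placebo rat. Their difference from ZL placebo was -1.78 (SE 0.18, adjusted p = 5.7e-07), and -1.53 without C13. Against ZO placebo the difference was -0.16 (95% interval -0.53 to 0.22, adjusted p = 0.998). The other *Bco2* probe set was dim, at 2.76 ± 0.15 in ZO probiotic rats (SD, n = 16), 2.80 ± 0.13 in ZO placebo rats and 3.15 ± 0.32 in ZL placebo rats (SD, n = 4 each). It was lower in ZO probiotic than in ZL placebo rats by -0.40 (adjusted p = 0.0131), and by -0.27 without C13, when it did not pass (adjusted p = 0.168). In ZO placebo rats it differed by -0.36 (adjusted p = 0.193), and by -0.23 without C13 (adjusted p = 0.568).

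The gene whose pattern was most like that of *Bco2* was *Il18*, an epithelial cytokine, with a root mean square difference of 0.27 log2 units over the 32 centred arrays, where *Bco2* itself varied by 0.753. *Il18* averaged 5.51 ± 0.30 in ZO probiotic rats (SD, n = 16) and 5.78 ± 0.48 in ZO placebo rats, against 7.17 ± 0.46 in ZO baseline, 7.02 ± 0.34 in ZL placebo and 6.91 ± 0.31 in ZL baseline rats (SD, n = 4 each). In the GRCr8 annotation *Il18* and *Bco2* are neighbours on chromosome 8 with 0 genes between them. *Gpx2*, a glutathione peroxidase of the gut, and *Prodh*, which degrades proline, followed at 0.355 and 0.358, and lie on other chromosomes. These genes were picked for their likeness, so their values are a description.

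**Figure D2:**
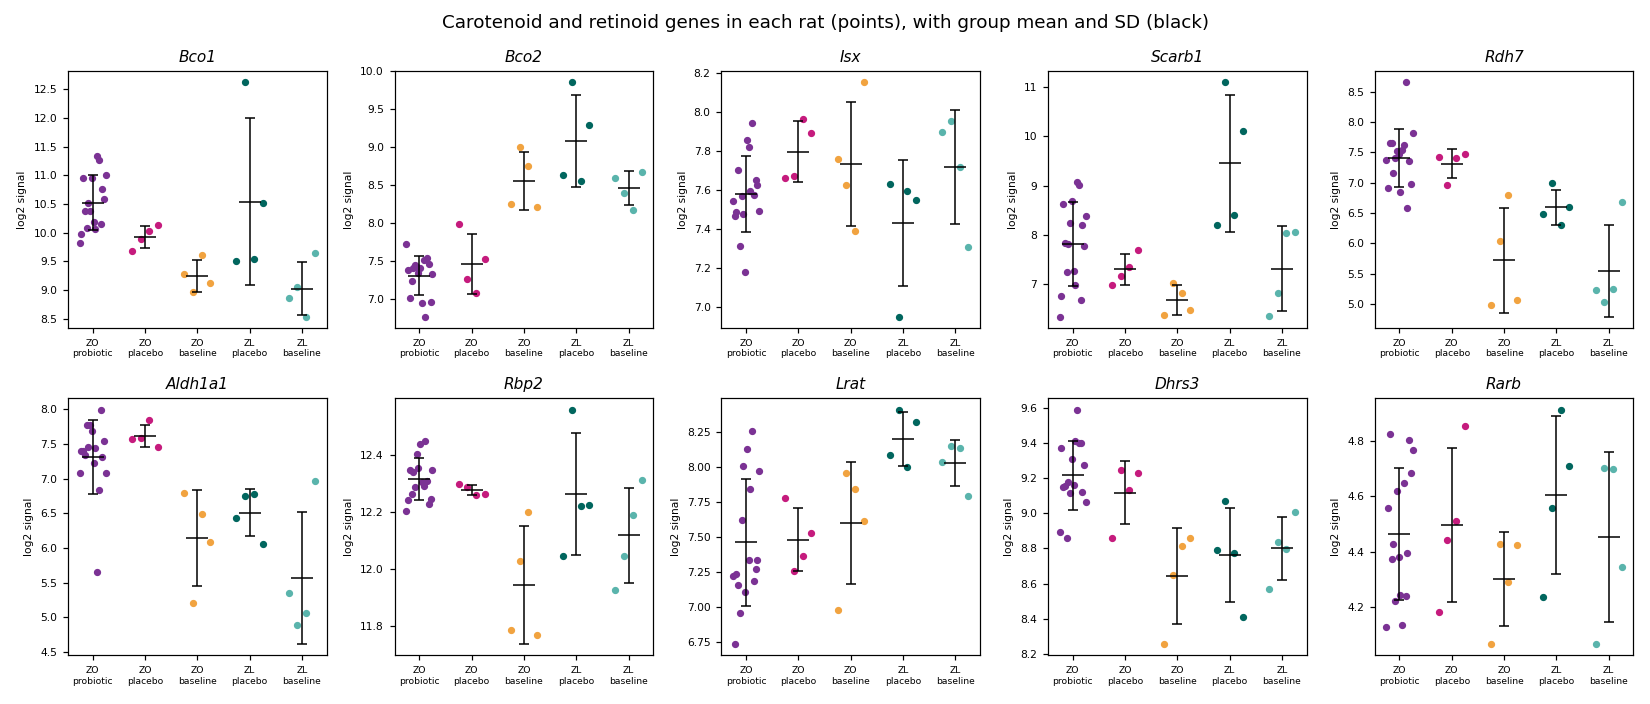
Log2 signal of the 10 genes in each rat, 1 panel per gene, with ZO probiotic, ZO placebo, ZO baseline, ZL placebo and ZL baseline rats in order. Black bars give the group mean and SD, and *Bco2* shows all ZO placebo and ZO probiotic rats below all ZL placebo rats.

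The start regions of the members show which letters lie beside their first bases. RefSeq promoters of 250 bases before to 50 after the gene start were matched by symbol for 9 of the 10 genes. *Bco2*, which fell, *Bco1*, the other cleavage enzyme, *Rdh7*, which rose, and *Rbp2*, the steadiest member, are shown. The sequences run 5′ to 3′ on the strand of the gene, in build GRCr8, from chr8:59803548-59803847 (minus strand) for *Bco2*, chr19:62057890-62058189 (plus) for *Bco1*, chr7:65574569-65574868 (minus) for *Rdh7* and chr8:107963292-107963591 (plus) for *Rbp2*. Capitals mark a GC box (GGGCGG on either strand) in *Bco2* and the nuclear receptor hexamer (AGGTCA on either strand) in the other 3. In *Bco1* and *Rbp2* they also mark the letters of a TATA box (TATAAA on either strand), wherever these lie.
Bco2: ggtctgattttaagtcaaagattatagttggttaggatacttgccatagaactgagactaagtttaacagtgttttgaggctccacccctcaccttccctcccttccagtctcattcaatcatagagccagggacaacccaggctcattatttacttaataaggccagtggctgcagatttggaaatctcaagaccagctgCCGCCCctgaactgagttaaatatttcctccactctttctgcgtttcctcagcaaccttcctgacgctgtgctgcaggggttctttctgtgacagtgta
Bco1: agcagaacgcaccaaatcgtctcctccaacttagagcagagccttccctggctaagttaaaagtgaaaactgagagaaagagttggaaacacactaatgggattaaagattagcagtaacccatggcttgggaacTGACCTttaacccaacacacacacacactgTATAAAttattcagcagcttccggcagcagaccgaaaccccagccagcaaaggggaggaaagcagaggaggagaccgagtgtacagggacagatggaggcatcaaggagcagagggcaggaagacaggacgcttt
Rdh7: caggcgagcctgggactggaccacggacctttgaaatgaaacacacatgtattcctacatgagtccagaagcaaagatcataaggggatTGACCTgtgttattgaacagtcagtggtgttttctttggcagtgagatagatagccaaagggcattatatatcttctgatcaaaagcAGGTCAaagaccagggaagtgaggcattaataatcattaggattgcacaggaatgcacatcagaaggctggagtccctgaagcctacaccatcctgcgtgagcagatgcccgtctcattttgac
Rbp2: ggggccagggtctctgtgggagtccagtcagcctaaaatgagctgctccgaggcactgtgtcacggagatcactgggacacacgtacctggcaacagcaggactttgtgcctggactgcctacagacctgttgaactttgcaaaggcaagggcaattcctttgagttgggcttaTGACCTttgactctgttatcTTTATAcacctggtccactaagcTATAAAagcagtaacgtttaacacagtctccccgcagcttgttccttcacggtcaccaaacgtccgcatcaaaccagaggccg
The hexamer was in 3 of the 9 promoters (*Bco1*, *Rdh7* and *Rbp2*), and in 16.2% of all 33469 promoters of the table. It lies 115 bases before the start in *Bco1*, 161 and 74 before it in *Rdh7*, and 76 before it in *Rbp2*. Retinoid receptors bind direct repeats of the hexamer spaced by 1, 2 or 5 bases. Exact repeats of this form were in 0 of the 9 and in 0.0538%, 0.012% and 0.00896% of all promoters. Copies that differ from the hexamer were not searched. Exact repeats are so rare that 0 of the 9 cannot show whether a site for these receptors is absent. The letters of the TATA box were in *Bco1*, *Isx* and *Rbp2* (14.2% of all promoters). They lie 85 bases before the start in *Bco1*, 217 before it in *Isx*, and 56 (opposite strand) and 33 before it in *Rbp2*. The GC box was in *Bco2*, *Lrat* and *Dhrs3* (33.1%), and the homeodomain core TAATTA in 0 of the 9 (5.36%). A match is a description of these windows and not a binding site.

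*Bco1* and *Scarb1*, the cleavage enzyme and the uptake receptor of provitamin A, varied most among the members with C13 included. *Scarb1* ran from 6.34 to 11.10 over the 32 rats, a 27.1-fold range, and *Bco1* from 8.54 to 12.62, a 16.8-fold range. Their SDs within groups, 0.852 and 0.631, were above those of 99.7% and 99.0% of all probe sets. C13 was the top rat in both, and the highest of the other rats had 10.10 for *Scarb1* and 11.33 for *Bco1*. In the model without C13, the SE of the baseline difference between the genotypes was 0.29 for *Bco1*, below the 0.39 of *Aldh1a1*. On placebo *Scarb1* had 6.98, 7.16, 7.34 and 7.70 in the ZO rats, against 8.21, 11.10, 8.40 and 10.10 in the ZL rats. The groups do not overlap, and C13 was the highest rat. The difference of -2.16 (SE 0.57) did not pass (adjusted p = 0.0584), and was -1.61 without C13 (adjusted p = 0.266). It passed without C11 (adjusted p = 0.0231) or C15 (adjusted p = 0.0313), the 2 ZL rats lowest in *Scarb1*. In ZL rats *Scarb1* stood 2.14 higher on placebo than at baseline, where the 4 rats had 6.35, 6.81, 8.03 and 8.06 (adjusted p = 0.0566, and 0.200 without C13). In ZO rats the same difference was 0.62 (adjusted p = 0.732), from baseline values of 6.37 to 7.02. The difference between the 30-day changes was -1.51 (SE 0.81, adjusted p = 0.624), and -0.97 without C13 (adjusted p = 0.80).

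*Scarb1* passed the test in ZO probiotic against ZL placebo rats, where it was lower by -1.65 (SE 0.45, adjusted p = 0.0288). The ZO probiotic rats ran from 6.34 to 9.08, with a median of 7.82, and the highest of them exceeded the lowest ZL placebo rats. Without C13 the difference was -1.10 and no longer passed (adjusted p = 0.265). *Bco1* had 9.67, 9.89, 10.03 and 10.13 in the ZO placebo rats, against 9.50, 12.62, 9.54 and 10.52 in the ZL placebo rats, with C13 at the top. Its difference was -0.61 (adjusted p = 0.645), and 0.08 without C13. In ZL rats *Bco1* stood 1.52 higher on placebo than at baseline (adjusted p = 0.0673), and 0.83 higher without C13 (adjusted p = 0.242). In ZO rats the 4 placebo values lay above the baseline values of 9.28, 8.96, 9.61 and 9.12, but the difference of 0.69 did not pass (adjusted p = 0.559).

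*Bco1* and *Scarb1* form a pair that was chosen after its values had been seen, so its correlation is a description. After removal of the group means, Pearson's r was 0.823 and Spearman's rho 0.806 over the 32 rats. Without the 2 rats farthest from the median of *Bco1* (C13 and C11), r was 0.799, and within the 16 ZO probiotic rats alone it was 0.953. Within that group the rat lowest in *Scarb1*, at 6.34, was also the lowest in *Bco1*, at 9.81, and the rat highest in *Scarb1*, Z45 at 9.08, was the highest in *Bco1*, at 11.33. The enterocyte markers followed the same rats, with the lowest means of that group in Z51 and Z21 (11.86 and 11.88) and the highest in Z46 and Z45 (12.26 and 12.16), and C13 had the highest of all 32 rats, 12.36. Their part in the correlation was not tested.

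*Isx*, the repressor of both genes in mice, was flat in comparison. It had 7.66, 7.67, 7.96 and 7.89 in ZO placebo rats, against 7.63, 6.95, 7.60 and 7.55 in ZL placebo rats, with C13 the lowest of all 32 rats. The difference of 0.36 did not pass (adjusted p = 0.369), and was 0.20 without C13. Within groups *Isx* was not shown to be related to *Bco1* (r = -0.418, rho = -0.223, permutation adjusted p = 0.186 and 0.467) or to *Scarb1* (r = -0.343, rho = -0.297, adjusted p = 0.186 and 0.381). Without C13 and C4, the 2 rats farthest from the median of *Isx*, these r were -0.139 and -0.166, so that the size of both rests on those rats. *Isx* and *Bco2* ran in opposite directions, with r = -0.59 and rho = -0.578 (permutation p = 0.00137 and 0.00155, adjusted p = 0.00822 and 0.0093 over 6 pairs). Without C13 and C4 that r was -0.49 (permutation p = 0.0101). Without C13 alone it was -0.472 (adjusted p = 0.0596), with rho = -0.51 (adjusted p = 0.0445), and within the 16 ZO probiotic rats -0.43 (adjusted p = 0.194). The genes most like *Isx* were *Limk2*, *Dpep1* and *Slc51a*, the last a bile acid carrier of the distal list, with root mean square differences of 0.152, 0.154 and 0.158 where *Isx* varied by 0.242.

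**Figure D3:**
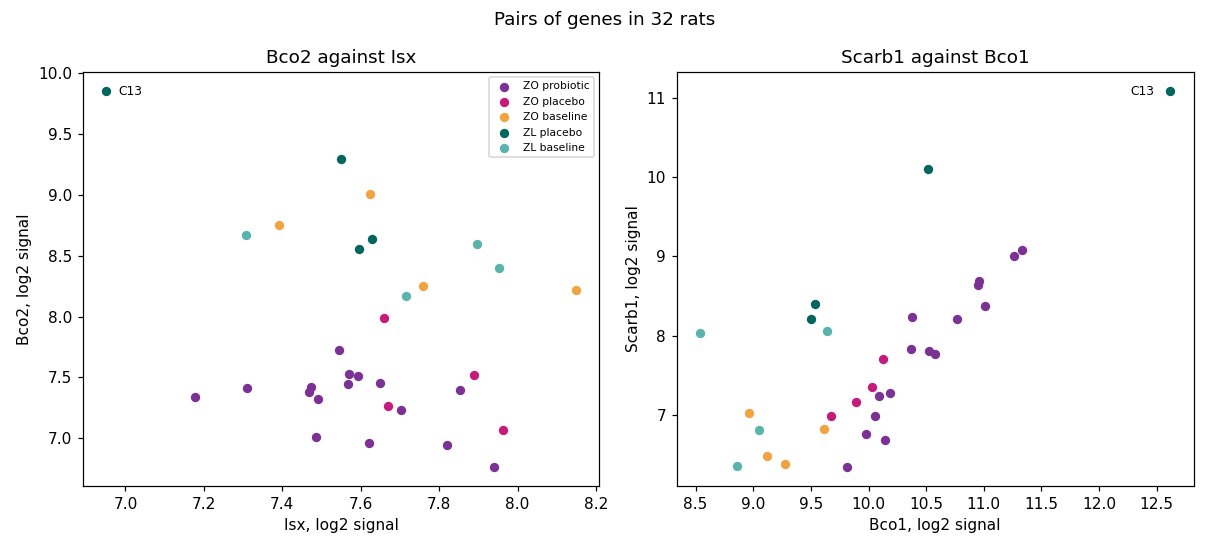
Log2 signal of *Bco2* against *Isx* (left) and of *Scarb1* against *Bco1* (right) in the 32 rats, 1 point per rat, coloured by group. The pair *Scarb1* and *Bco1* has an r of 0.823 after removal of the group means, and C13 is the highest rat for both.

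The oxidising enzymes *Rdh7*, a microsomal retinol dehydrogenase, and *Aldh1a1*, which oxidises retinal to retinoic acid, rose in ZO rats over the 30 days of placebo. *Rdh7* had 7.42, 6.96, 7.40 and 7.47 in ZO placebo rats, against 4.98, 6.04, 6.79 and 5.06 at ZO baseline. The ranges do not overlap, and the rise was 1.59 (SE 0.36, adjusted p = 0.0181), or 3.02-fold. *Aldh1a1* had 7.57, 7.58, 7.84 and 7.46 in ZO placebo rats, against 6.80, 5.21, 6.49 and 6.08 at ZO baseline. Its rise was 1.47 (SE 0.38, adjusted p = 0.045), or 2.77-fold. With *Bco2*, which fell, 3 of the 10 members passed in this comparison, where 1.36% of all probe sets did. The median difference of the 10 members was 0.40, against -0.02 over all probe sets. Between placebo and baseline in ZL rats it was 0.40 as well, against -0.004 over all probe sets. In each genotype 8 of the 10 members had a difference above 0. Without the ZO placebo rat Z15, the adjusted p was 0.0617 for *Rdh7*, 0.14 for *Aldh1a1* and 0.0646 for *Bco2*, and 0 members passed. Without Z2 only *Rdh7* passed, and without Z4 or Z16 only *Bco2*. Over the 8 runs that each left out 1 of these rats, *Bco2* passed in 6, *Rdh7* in 4 and *Aldh1a1* in 1. Without C13 or without C4, rats of neither group that share the model's estimate of the spread, 4 members passed, *Rbp2* being added, where 1.66% and 1.64% of all probe sets did.

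Other rat to rat differences moved with this comparison. The enterocyte markers had means of 11.98 to 12.04 in the ZO placebo rats, against 11.34 to 11.91 at ZO baseline, and the cell division genes 7.53 to 7.65, against 8.03 to 8.58. Of 11 enterocyte markers measured, 1 rose (*Fabp1*, by 0.25, adjusted p = 0.0267), and of 5 cell division genes, 1 fell. All 11 enterocyte markers had a difference above 0 (median 0.25), and all 5 cell division genes a difference below 0 (median -0.77). Both red blood cell markers measured fell (median difference -1.20), with means of 5.31 to 5.88 in ZO placebo rats, against 6.27 to 7.27 at ZO baseline. Of 5 B and plasma cell markers 1 rose, with means of 6.73 to 7.16, against 5.97 to 7.25. The part of these differences in the member changes was not tested.

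In ZL rats, 0 of the 10 members passed between placebo and baseline by limma, where 0.911% of all probe sets did, and 4 of the 10 passed without the baseline rat C4. At an unadjusted p under 0.05, 5 members passed by limma, as did 4931 of all 29214 probe sets. The unpaired test of the study's methods gave 0 members after adjustment. Unadjusted it gave 2, without a count over all probe sets for that test to set beside them. Without C11, *Bco1* and *Scarb1* passed, and without C15 *Bco1* did. *Rdh7* had 6.49, 6.99, 6.31 and 6.60 in ZL placebo rats, against 5.23, 5.04, 5.25 and 6.68 at baseline, the last being C4. The difference was 1.05 (adjusted p = 0.141), and 1.42 without C4 (adjusted p = 0.0196). *Aldh1a1* had 6.43, 6.75, 6.78 and 6.06 in ZL placebo rats, against 5.36, 4.89, 5.07 and 6.96 at baseline, C4 again being the highest. Its difference was 0.94 (adjusted p = 0.208), and 1.40 without C4 (adjusted p = 0.0224). *Bco1* and *Scarb1* were the other 2, at 1.73 (adjusted p = 0.028) and 2.39 (adjusted p = 0.0247) without C4. Leaving out C4 also raised the share of all probe sets that passed to 4.38%. The changes of the genotypes were not shown to differ for any member: 0 of 10 passed the test of the difference by limma, against 0.00342% of all probe sets. At an unadjusted p under 0.05 by limma there were 2 members, and 2487 of all 29214 probe sets. The differences of the changes were 0.55 (SE 0.51) for *Rdh7* and 0.53 (SE 0.54) for *Aldh1a1*. Without C4 these were 0.17 (adjusted p = 0.935) and 0.07 (adjusted p = 0.978).

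Between the genotypes on placebo, *Aldh1a1* was 1.11 higher in ZO rats with no overlap, but did not pass (adjusted p = 0.196). In a model of only these 8 rats it passed (adjusted p = 0.0312). *Rdh7* was 0.72 higher (adjusted p = 0.458). *Bco2* was thus the 1 of 10 members that passed between ZO and ZL rats on placebo, where 1.04% of all probe sets did. The genes most like *Rdh7* were *C8g*, *Prxl2a* and *Hsd17b4*, a peroxisomal enzyme of fatty acid oxidation, at root mean square differences of 0.381, 0.481 and 0.487 where *Rdh7* varied by 0.898. Those most like *Aldh1a1* were *Vwa8*, *Acacb*, an acetyl-CoA carboxylase, and *Acot2*, a mitochondrial acyl-CoA thioesterase, at 0.383, 0.388 and 0.40 where *Aldh1a1* varied by 0.856. *Rdh7* and *Aldh1a1* were not shown to be related within the groups (r = 0.0121, rho = -0.0722, permutation adjusted p = 0.957 and 0.731). *Rdh7* lies near its close relative *Rdh16* on chromosome 7, with 3 genes between them, and a probe set that carries both symbols was left out, so that signal shared by near-identical copies cannot be told apart. *Aldh1a1* was also picked by the study on these samples, in another comparison, as lower with 1 of its strains than with placebo in ZO rats.

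**Figure D4:**
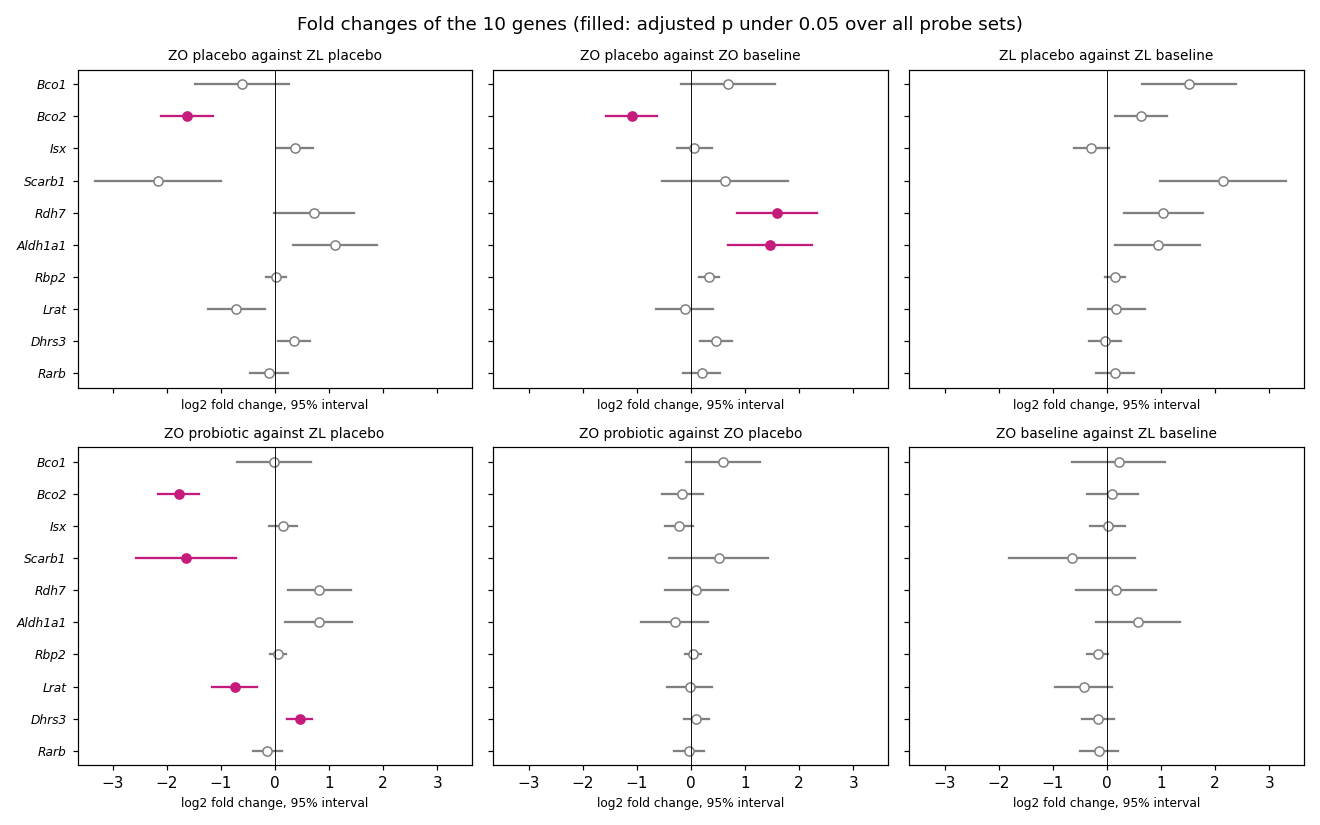
Log2 fold changes of the 10 genes (points) with 95% intervals (lines) in 6 comparisons, 1 panel each, where values above 0 are higher in the group named first. Filled points passed at an adjusted p under 0.05 over all probe sets, as *Bco2* did in 3 panels.

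Of the remaining members, *Rbp2*, *Lrat*, *Dhrs3* and *Rarb* did not pass between ZO and ZL rats on placebo or over the 30 days with all rats in the model. *Rbp2*, the cellular retinol binding protein of the enterocyte, lay between 11.77 and 12.56 in all rats, and its SD within groups of 0.126 was above that of 25.8% of all probe sets. It had 12.30, 12.29, 12.26 and 12.26 in ZO placebo rats, against 11.78, 12.03, 12.20 and 11.77 at ZO baseline. The difference of 0.33 did not pass (adjusted p = 0.0604). It passed without C13 (adjusted p = 0.0279), without C4 (adjusted p = 0.046) or without the ZO baseline rat Z3 (adjusted p = 0.0169). *Lrat*, which makes retinyl esters, had 7.78, 7.26, 7.36 and 7.52 in ZO placebo rats, against 8.08, 8.41, 8.00 and 8.32 in ZL placebo rats. The groups do not overlap, but the difference of -0.72 did not pass (adjusted p = 0.222). In ZO probiotic rats, at 6.73 to 8.25 with a median of 7.30, *Lrat* was lower than in ZL placebo rats by -0.74 (SE 0.20, adjusted p = 0.0298), and by -0.67 without C13, when it did not pass (adjusted p = 0.139).

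*Dhrs3*, which reduces retinal back to retinol, had 8.86 to 9.59 in ZO probiotic rats, with a median of 9.17, against 8.79, 9.07, 8.78 and 8.41 in ZL placebo rats. It was higher by 0.45 (SE 0.11, adjusted p = 0.0168), by 0.56 without C13 (adjusted p = 0.0106), and by 0.34 without C16, when it did not pass (adjusted p = 0.153). In ZO placebo rats it had 8.86, 9.24, 9.13 and 9.23, against 8.26, 8.65, 8.81 and 8.86 at ZO baseline, a difference of 0.47 that did not pass (adjusted p = 0.107). *Rarb*, the retinoic acid receptor whose own gene retinoic acid induces, was dim, at 4.07 to 4.91 over all rats. It passed in 0 of the 7 comparisons, as did its other 2 probe sets, and was not shown to be related to *Dhrs3* within the groups (r = 0.174, rho = 0.0664, permutation adjusted p = 0.439 and 0.731). *Isx* and *Lrat* were not shown to be related either (r = 0.204, rho = 0.188, permutation adjusted p = 0.402 and 0.467).

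With *Bco2*, *Scarb1*, *Lrat* and *Dhrs3*, 4 of the 10 members passed in ZO probiotic against ZL placebo rats, where 4.66% of all probe sets did, and 2 of the 10 without C13 (*Bco2* and *Dhrs3*), where 2.34% did. Without C16, *Bco2* alone passed, and without the probiotic rat Z45 *Aldh1a1* passed as well (adjusted p = 0.0317). This comparison differs in both genotype and treatment, which cannot be told apart in it, and it shares its ZL placebo rats with that of ZO placebo rats. The proximal markers had means of 8.40 to 9.21 in ZO probiotic rats, against 8.66 to 10.10 in ZL placebo rats, and 1 of 4 was lower. Macrophage markers had means of 6.18 to 7.49, against 6.87 to 7.74, and 1 of 6 was lower (*Cd68*). Dendritic cell markers had means of 5.20 to 6.03, against 5.84 to 6.58, the last being C13. Of 5 dendritic cell markers 2 were lower (*Flt3* and *Itgax*), and 1 had a difference above 0. Of 11 enterocyte markers 2 were higher, with means of 11.86 to 12.26 in ZO probiotic rats, against 11.76 to 12.36 in ZL placebo rats. Of 5 goblet cell markers 1 was higher, with means of 11.82 to 12.10, against 11.69 to 11.85. Their part in the member differences was not tested. Set against ZO placebo rats, 0 of the 10 members passed by limma in the ZO probiotic rats, where 0.00342% of all probe sets did, and each adjusted p was 0.998. At an unadjusted p under 0.05 by limma there were 0 members, and 1205 of all 29214 probe sets. The largest difference was 0.60 for *Bco1* (95% interval -0.09 to 1.28), followed by 0.51 for *Scarb1* (-0.41 to 1.43). Without C13, which is in neither group, the spread of *Bco1* was smaller, so that its interval was 0.12 to 1.07 (unadjusted p = 0.0161, adjusted p = 0.994 by limma), and it was the 1 member at an unadjusted p under 0.05. *Aldh1a1* differed by -0.30 (-0.92 to 0.32), *Isx* by -0.22 (-0.48 to 0.04), and *Rdh7* by 0.10 (-0.48 to 0.68). The probiotic rat Z45 had *Aldh1a1* at 5.66, where the other 15 had 6.84 to 7.99.

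At baseline, 0 of the 10 members passed between ZO and ZL rats by limma, also at an unadjusted p under 0.05. Of all probe sets 0% passed, although 3352 had an unadjusted p under 0.05. Each alternative setting that was run also gave 0 of the 10. The largest differences were -0.64 for *Scarb1* (95% interval -1.81 to 0.52), 0.58 for *Aldh1a1* (-0.20 to 1.35) and -0.43 for *Lrat* (-0.96 to 0.10). The intervals of *Scarb1* and *Aldh1a1* span more than a 2-fold change. Without C4, 1.05% of all probe sets passed and still 0 of the 10 members. The differences were then -0.39 for *Scarb1* (adjusted p = 0.786), 1.04 for *Aldh1a1* (adjusted p = 0.117), -0.51 for *Lrat* (adjusted p = 0.338) and 0.55 for *Rdh7* (adjusted p = 0.415), which had been 0.17 with C4.

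The other genes of retinoid uptake, transport, oxidation, breakdown and signalling were measured for 38 of 46 listed. Of these, 2 were higher and 1 lower in ZO than in ZL rats on placebo, where 1.04% of all probe sets passed. Over 30 days of placebo 3 rose and 1 fell in ZO rats, against 1.36%, and 1 rose in ZL rats, against 0.911%. In ZO probiotic against ZL placebo rats 3 were higher and 1 lower, against 4.66%. In the other 3 comparisons 0 of 38 passed. Without C4, 4 rose in ZL rats (*Retsat*, *Rdh16*, *Dhrs4* and *Rdh13*), where 4.38% of all probe sets passed. Also without C4, 1 (*Retsat*) was higher in ZO than in ZL rats at baseline, against 1.05%. Without C13, 0 rose in ZL rats, where 0.288% of all probe sets passed, and 2 passed between ZO and ZL rats on placebo (*Retsat* and *Dhrs4*), against 0.64%. Between ZO probiotic and ZL placebo rats 3 passed without C13, against 2.34%. These were *Retsat* and *Dhrs4*, which were higher, and *Stra6l*, a relative of a retinol uptake receptor, at -0.49 (adjusted p = 0.0035), which had been -0.11 with C13. Their median difference lay between -0.03 and 0.07 in the 7 comparisons, where that over all probe sets lay between -0.02 and 0.01.

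*Retsat*, which saturates retinol, passed most often. It had 12.49, 12.78, 12.70 and 12.66 in ZO placebo rats, against 11.78, 12.08, 12.03 and 11.59 in ZL placebo rats, and the groups do not overlap. The difference was 0.79 (SE 0.16, adjusted p = 0.0061), and 0.86 without C13 (adjusted p = 0.0077). It rose by 0.93 over 30 days in ZO rats (adjusted p = 0.0015) and by 0.68 in ZL rats (adjusted p = 0.0314, and 0.105 without C13), and these changes were not shown to differ (0.25, adjusted p = 0.809). Without C4 the rise in ZL rats was 0.92 (adjusted p = 0.00031) and the difference of the changes 0.0057. At baseline it was 0.54 higher in ZO than in ZL rats, which did not pass (adjusted p = 0.256), and without C4 it was 0.78 higher and passed (adjusted p = 0.008). *Dhrs4*, a peroxisomal retinal reductase, had 8.43, 8.58, 8.60 and 8.60 in ZO placebo rats, against 7.95, 7.93, 7.97 and 7.42 in ZL placebo rats. It was higher by 0.74 (SE 0.15, adjusted p = 0.0105) and rose over 30 days in ZO rats by 0.79 (adjusted p = 0.0051). In ZL rats it differed by 0.42 (adjusted p = 0.162), and by 0.59 without C4, when it passed (adjusted p = 0.0181). In ZO probiotic rats *Retsat* and *Dhrs4* were higher than in ZL placebo rats by 0.80 (adjusted p = 0.00013) and 0.70 (adjusted p = 0.00063).

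*Rdh16*, a retinol dehydrogenase, rose by 1.13 in ZO rats over 30 days of placebo (SE 0.22, adjusted p = 0.0053), with 10.65 to 10.97 in ZO placebo rats, against 9.17 to 10.36 at ZO baseline. In ZL rats it differed by 0.71 (adjusted p = 0.0989), and by 0.95 without C4, when it passed (adjusted p = 0.0117). *Ppard*, a nuclear receptor that binds fatty acids and, by some reports, retinoic acid, had 10.17, 10.43, 10.27 and 10.52 in ZO placebo rats, against 10.67, 10.90, 10.75 and 10.89 in ZL placebo rats. It was lower by -0.46 (SE 0.11, adjusted p = 0.0255), and by -0.42 without C13, when it did not pass (adjusted p = 0.0972). Over 30 days it fell in ZO rats by 0.56 on the log2 scale (adjusted p = 0.0042). In ZO probiotic rats it was lower than in ZL placebo rats by -0.29 (adjusted p = 0.0391, and 0.174 without C13). *Lipe*, a lipase that also hydrolyses retinyl esters, was higher in ZO probiotic than in ZL placebo rats by 0.54 (adjusted p = 0.0183, and 0.0561 without C13), and its other probe set by 0.27 (adjusted p = 0.262). The 4 retinoic acid hydroxylases and the 6 other binding proteins measured passed in 0 comparisons, with all rats or without C13 or C4.

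**Figure D5:**
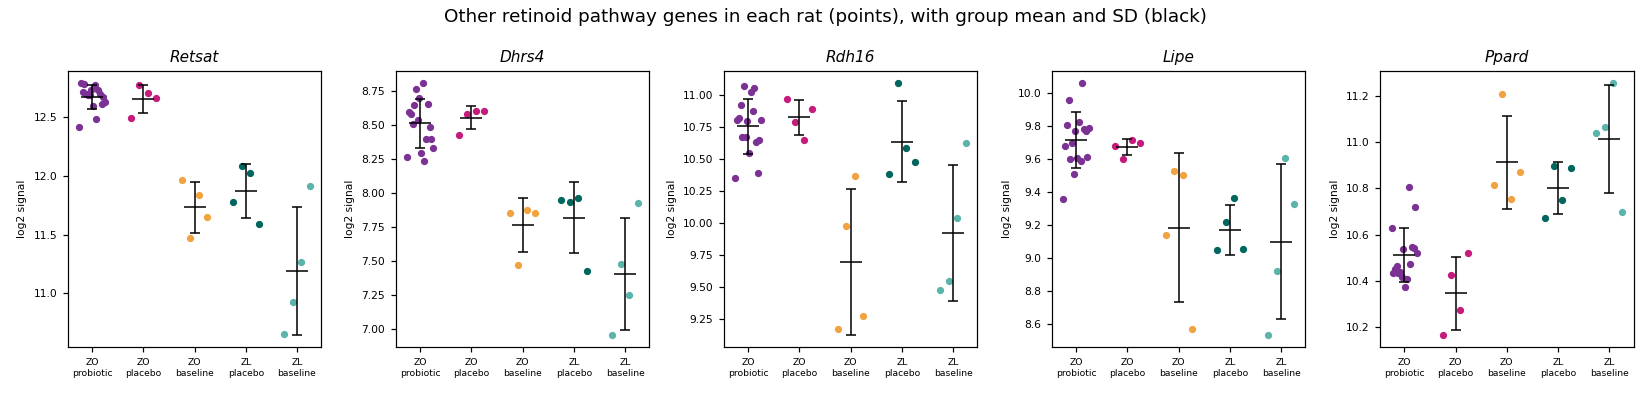
Log2 signal of the 5 other retinoid genes that passed in any comparison with all rats in the model, 1 panel per gene, in each rat of the 5 groups, with black bars for the group mean and SD. *Retsat* and *Dhrs4* of all ZO placebo rats lie above those of all ZL placebo rats, and *Ppard* below.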

How the data were processed

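The authors measured RNA of the intestinal mucosa of 32 rats on Affymetrix Rat Gene 1.1 ST arrays and made probe set values with RMA, which subtracts background, equalises the distributions of the arrays and summarises probes on a log2 scale. The methods name the Affymetrix Expression Console and Partek, and which of them made the table is not stated. The deposited table holds a score with no fixed range, because nearly all of its 934848 values had lost the decimal point of the authors' log2 signal, and 161 kept it. The tests had been planned for log2 values and were applied once the point had been restored, after the second digit where the first 2 were 10 to 13 and otherwise after the first. This put 63652 values at 10 or more, of which 8 were closer to the median of the other arrays when read as 1, none in a member.

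Gene names came from the platform annotation. All 32 arrays entered 1 model of 5 group means in limma 3.58.1 (R 4.3.3), adjusted by Benjamini-Hochberg over all 29214 probe sets, with a threshold of 0.05 and no minimum fold. The median standard error of a difference was 0.114 for 4 rats against 4 and 0.0899 for 16 against 4 (log2 units); precision is set by how many rats there were. Permutation tests of relations used 100000 permutations within groups. The scripts were tested on simulated data. The members and gene lists were chosen with earlier results of these data known. Named are all members, each other listed retinoid gene that passed in any comparison, and for *Bco2*, *Isx*, *Rdh7* and *Aldh1a1* the 3 genes with the smallest root mean square difference over the arrays. Alternatives were quantile normalization, median centring, leaving out the lowest 30% of probe sets, array weights, 1 probe set per gene, fitting each comparison on its own groups, another rule for the decimal point, blocks by rat number, the methods' t-test, and leaving out each rat. The single strains were not analysed here.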

Additional observations from a re-analysis of the deposited data

Results flagged for a closer look

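Among 40 groups of 4 rats, 10 members in 4 groups, 3 had 1 rat farther from the others than Dixon's 95% critical value allows, and chance gives about 1 in 20. *Isx* in the ZL placebo rat C13 was 6.95, against 7.55 to 7.63 in the other 3 rats of its group, and the regional markers of this rat also stand apart. *Rdh7* in the ZO placebo rat Z13 was 6.96, against 7.40 to 7.47 in the other 3. *Rdh7* in the ZL baseline rat C4 was 6.68, against 5.04 to 5.25 in the other 3. What sets these rats apart was not tested.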

How the results depend on the processing

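None of the member fold changes that passed changed direction in any alternative. Between ZO and ZL rats on placebo, 1 member passed, and 2 (*Bco2* and *Scarb1*) without the lowest 30% of probe sets, with 1 probe set per gene, with array weights or with a block by each rat number's last digit. Fitted on these 8 rats alone, 1 passed (*Aldh1a1*, not *Bco2*), with or without the rat number as a block (*Bco2* adjusted p = 0.14 with it). Between ZO placebo and ZO baseline, 3 members passed, 5 with array weights and 1 with the last digit as a block. The methods' t-test gave 0 after Benjamini-Hochberg and 7 unadjusted, the 7 without a count over all probe sets for that test. By limma, 5 members and 3547 of all 29214 probe sets had an unadjusted p under 0.05 in this comparison. Between ZL placebo and ZL baseline, 0 passed, 1 without the lowest 30% of probe sets or with 1 probe set per gene (*Scarb1*), and 2 by the unadjusted t-test. For the difference between the 30-day changes, 1 passed with 1 probe set per gene (*Bco2*). Between ZO probiotic and ZL placebo, 2 of the 4 passed when only these groups were fitted. The cause of these shifts was not tested. Counts over all probe sets are given below for some of these settings only. None is given for the filter on low values, 1 probe set per gene or the unadjusted t-test. Member counts without one cannot be set against a background.

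Leaving out 1 rat of the groups compared gave 1 to 2 members between ZO and ZL on placebo, 0 to 3 between ZO placebo and ZO baseline, 0 to 4 between ZL placebo and ZL baseline, 0 to 1 for the difference of changes and 1 to 5 between ZO probiotic and ZL placebo. In that order, these runs gave 115 to 383, 172 to 356, 32 to 1281, 1 to 6 and 684 to 1498 of all 29214 probe sets. At baseline, and between ZO probiotic and ZO placebo, each run gave 0 members, where 0 to 307 and 0 to 2 probe sets passed. Without C13 or without C4, chosen after seeing the data, 4 members passed between ZO placebo and ZO baseline, where 1.66% and 1.64% of all probe sets did. In the 16 ZO probiotic rats alone, r was 0.0276 for *Isx* and *Bco1*, -0.43 for *Isx* and *Bco2*, -0.0017 for *Dhrs3* and *Rarb* and -0.445 for *Rdh7* and *Aldh1a1*, and 0.516 for *Isx* and *Lrat* (rho 0.547, permutation adjusted p = 0.194 and 0.18). Without C13, an alternative chosen after seeing the data, it was -0.472 for *Isx* and *Bco2* and -0.0036 for *Rdh7* and *Aldh1a1*.

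Over all probe sets, 304 passed between ZO and ZL on placebo, against 673 with array weights, 118 from these groups alone and 45 with the rat number as a block. Between ZO placebo and ZO baseline 398 passed, against 1231 with array weights, 251 with the last digit as a block and 28 by the adjusted t-test. Between ZL placebo and ZL baseline 266 passed, against 66 after quantile normalization, 85 after median centring, 73 with array weights, 0 from these groups alone, 1989 with the last digit as a block and 1 by the adjusted t-test. For rats of the same number in both genotypes the correlation of their deviations was -0.02 to 0.08 on placebo and -0.04 to 0.23 at baseline, so not every pair exceeded 0.1 and the numbers were not treated as pairing. The dim signals of *Rarb* and of the second *Bco2* probe set limit what they can show.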
